A study of Homo sapiens with 4 samples.

Results

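A block of 9 neighbouring genes on chromosome 7, in band 7q21, was described across the libraries: ELAPOR2, DMTF1-AS1, DMTF1, TMEM243, TP53TG1, CROT, ABCB4, ABCB1 and SLC25A40. They are 9 of the 15201 genes with a value. They were chosen because they lie side by side around ABCB1 and were higher in resistant cells, so the differences between groups given for them are a description of that choice and carry no test. ARP-1, the source of the libraries, is a myeloma line of human origin. Its 4 libraries form 2 groups of 2: wild-type cells (WT) and cells with carfilzomib resistance (CfzR). Carfilzomib is an irreversible inhibitor of the proteasome used against myeloma. The labels give no genetic change, no drug exposure at harvest, and no statement on whether the resistant line is 1 clone or a pool.

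ABCB1 encodes P-glycoprotein, a plasma membrane pump that uses ATP to expel a wide range of hydrophobic drugs, and carfilzomib is among its substrates. Its closest relative, ABCB4, lies beside it and moves phosphatidylcholine into bile in liver. The other genes of the block have no shared biochemistry with the pumps. CROT transfers medium-chain acyl groups to carnitine in peroxisomes. SLC25A40 is a mitochondrial inner membrane carrier related to the glutathione importer SLC25A39. DMTF1 is a Myb-like transcription factor that activates the ARF tumour suppressor, and TP53TG1 is a long noncoding RNA.

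The libraries were of like median level, from 7.50 to 7.75 FPKM (fragments per kilobase of transcript, scaled to the fragments of the library). The CfzR libraries differed from each other by transcript length. Replicate 1 minus replicate 2 on the log2 scale had a Spearman correlation of 0.424 with length across genes, against 0.132 for the WT pair. A difference within the pair cannot tell which CfzR library departs. All 10 plasma cell markers examined had a value, among them IGKC, XBP1 and SDC1 (CD138), and their summed level, most of it IGKC and JCHAIN, was 15790 to 19690 FPKM in WT and 20360 to 23820 in CfzR. Of these 10, only SLAMF7, a surface receptor of plasma cells, passed the test, with 0.282 and 0.199 FPKM for WT against 22.1 and 18.7 for CfzR (limma adjusted p = 0.000525). XBP1 and TNFRSF17 (BCMA) had log2 differences of -0.29 and -0.58 (adjusted p = 0.72 and 0.495). Markers of hepatocytes, T cells and NK cells had no value, and of the others only 4 had a value. CD68 (myeloid) reached 2.10 FPKM at most and PDGFRB (stromal) 6.02, and KRT8 and KRT18 (epithelial) together 6.79.

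Sequence is shown first for the starts the results return to. ABCB1 has a pair of annotated RefSeq start sites 112 kb apart, and gene-level values cannot tell their use apart. The stretches before them that lie outside coding-gene exons in GENCODE are printed (5′ to 3′ on the minus strand), with the 30 bases around the CCAAT box nearest to the downstream start. The shared gap between the starts of TP53TG1 and CROT follows, on the strand of CROT, because these genes start back to back. Capitals mark CCAAT and GGGCGG in either orientation, the motifs bound by NF-Y and by SP1-type factors.
ABCB1 before the upstream start, chr7:87713324-87713545: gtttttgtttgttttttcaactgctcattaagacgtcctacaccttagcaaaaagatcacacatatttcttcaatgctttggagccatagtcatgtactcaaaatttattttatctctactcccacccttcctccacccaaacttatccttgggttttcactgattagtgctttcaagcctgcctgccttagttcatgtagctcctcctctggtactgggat
ABCB1 before the downstream start, chr7:87601079-87601134: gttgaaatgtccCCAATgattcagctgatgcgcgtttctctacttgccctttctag
ABCB1 around the box, chr7:87600946-87600975: gtggtgaggctgATTGGctgggcaggaaca
TP53TG1 to CROT, chr7:87345493-87345663: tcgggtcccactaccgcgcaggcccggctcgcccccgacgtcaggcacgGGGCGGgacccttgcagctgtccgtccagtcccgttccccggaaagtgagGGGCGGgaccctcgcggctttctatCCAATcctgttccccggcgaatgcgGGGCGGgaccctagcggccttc

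The 2 ABCB1 starts differ in base content. The 250 bases before the downstream start held 2 CCAAT boxes, 79 and 238 bases before it, and 55.6% G and C. Those before the upstream start held neither motif and had 39.2% G and C. The gap between TP53TG1 and CROT is 171 bases long, with 3 GGGCGG boxes, 1 CCAAT box and 71.3% G and C. Over all 35116 RefSeq windows of 250 bases, 32.0% hold CCAAT and 42.6% hold GGGCGG in either orientation, so both are common. Of the other motifs searched on both strands, TATAAA and TGACTCA were in none of the 13 windows of these genes. CACGTG was in 2 overlapping windows of TMEM243. GAANNTTC was in 1 window of ABCB1 and 1 of DMTF1-AS1. Over all windows these 4 motifs occur in 10.7%, 4.20%, 6.34% and 5.78%.

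ABCB1 went from low in the ranking of genes with a value to near its top. Its level was 1.27 and 0.632 FPKM in WT replicates 1 and 2, against 268 and 228 FPKM in CfzR replicates 1 and 2. Values below keep this order, replicate 1 before replicate 2. In rank order from the top it was gene 12555 and 14158 of the WT libraries and gene 342 and 552 of the CfzR libraries. The ratio of mean FPKM was 261, and the ratio of the lower CfzR library to the higher WT library was 179. The log2 difference on log2(FPKM + 1) was 7.01. In these bulk libraries, a moderate level in all cells and a high level in some cells cannot be told apart.

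ABCB4 was the lowest of the 9 genes in WT, at 0.227 and 0.287 FPKM, and stood at 44.8 and 53.3 FPKM in CfzR. The ratio of means was 191. ABCB1 remained the more abundant of the 2 pumps in every library, 5.62 and 2.20 times ABCB4 in WT and 5.99 and 4.29 times in CfzR. The paralogues share little exact sequence in words of 25 or 50 bases, lengths that were set here and not taken from the reads. Of the 50-base words in the longest coding transcript of ABCB4, 2.82% also occur in that of ABCB1, and 5.96% of 25-base words do. How the authors' counting split reads from such stretches is not given in the sources used here.

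Both metabolic genes were also far higher in CfzR. CROT read 2.59 and 2.51 FPKM in the WT libraries against 45.0 and 41.0 in the CfzR libraries, a ratio of means of 16.9. Its libraries agreed closely, with a CfzR replicate 1 to replicate 2 ratio of 1.09. SLC25A40 read 7.37 and 6.99 FPKM in the WT libraries against 256 and 143 in the CfzR libraries, a ratio of 27.8. It had the widest CfzR spread of the 9, replicate 1 being 1.79 times replicate 2. Its ratio of the lower CfzR to the higher WT library was 19.4.

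The noncoding RNAs and the transcription factor gene showed smaller ratios. TP53TG1 read 10.3 and 11.2 FPKM in the WT libraries against 97.3 and 126 in the CfzR libraries, a ratio of 10.4. DMTF1-AS1, the antisense RNA that starts against DMTF1, read 5.52 and 3.49 FPKM in the WT libraries against 19.9 and 25.6 in the CfzR libraries, a ratio of 5.05. The transcription factor gene DMTF1 read 17.1 and 9.86 FPKM in the WT libraries against 33.1 and 29.4 in the CfzR libraries. Its ratio of 2.32 was the smallest of the 9, and its WT libraries differed by 1.73 times. Reads where genes on opposite strands share exonic bases cannot be assigned without strand. DMTF1-AS1 shares 60 bases (6.76% of its exonic bases) with DMTF1, and TMEM243 shares 178 bases (5.44%) with the end of DMTF1.

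The remaining pair encode membrane proteins. TMEM243 was the most abundant of the 9 in WT, at 42.1 and 45.9 FPKM, and reached 127 and 140 FPKM in CfzR, a ratio of 3.03. ELAPOR2, a relative of the apoptosis and autophagy regulator ELAPOR1, read 5.86 and 5.87 FPKM in the WT libraries against 20.0 and 15.4 in the CfzR libraries, a ratio of 3.01. A small ratio did not mean a small gain in transcripts. TMEM243 gained 89.3 FPKM, more than ABCB4 (48.8) or CROT (40.5), while ABCB1 gained 247, SLC25A40 192 and TP53TG1 101 FPKM.

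**Figure D1:**
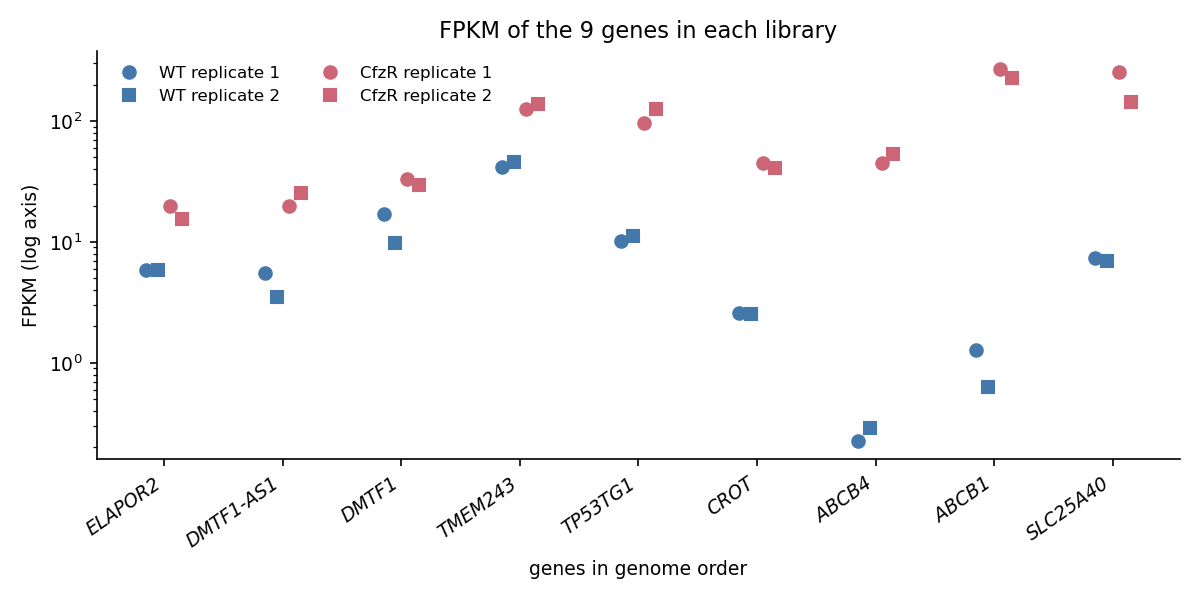
FPKM (log axis) of each of the 9 genes in genome order, 1 point per library, WT in blue and CfzR in red, replicate 1 as circles and replicate 2 as squares. Both CfzR points lie above both WT points for every gene, with the widest gaps at ABCB4 and ABCB1.

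For all 9 genes both CfzR libraries were above both WT libraries, which also held for 22.1% of the 13411 genes whose mean over the libraries reached 1 FPKM. All 9 passed that filter on low values. ABCB4 and ABCB1, with WT means of 0.257 and 0.953 FPKM, passed it only through their CfzR values. With limma, 7 of the 9 were past an adjusted p of 0.05 in the higher direction, against 0.246% of tested genes. All 9 had a log2 difference over 1, against 1.69% of tested genes. Nothing is read from these counts, since the genes were chosen on this contrast. Their median log2 difference was 3.25, against -0.02 over all tested genes. Over the other chromosome 7 genes tested the median was -0.0016, with 649 genes tested on that chromosome in all.

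The order of the genes by level changed between groups. In WT it ran from TMEM243 (43.96 FPKM on average) through DMTF1, TP53TG1, SLC25A40, ELAPOR2, DMTF1-AS1, CROT and ABCB1 to ABCB4. DMTF1 and TP53TG1 were the only neighbours in that order whose libraries overlapped. In CfzR it ran from ABCB1 (248) through SLC25A40, TMEM243, TP53TG1, ABCB4, CROT, DMTF1 and DMTF1-AS1 to ELAPOR2 (17.7). There the libraries overlapped between ABCB1 and SLC25A40, between ABCB4 and CROT, and between DMTF1-AS1 and ELAPOR2. ABCB1 made up 1.38% and 0.728% of the summed FPKM of the 9 genes in WT and 29.4% and 28.5% in CfzR. The 9 genes together made up 0.01% and 0.00908% of all FPKM in WT and 0.135% and 0.0914% in CfzR.

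**Figure D2:**
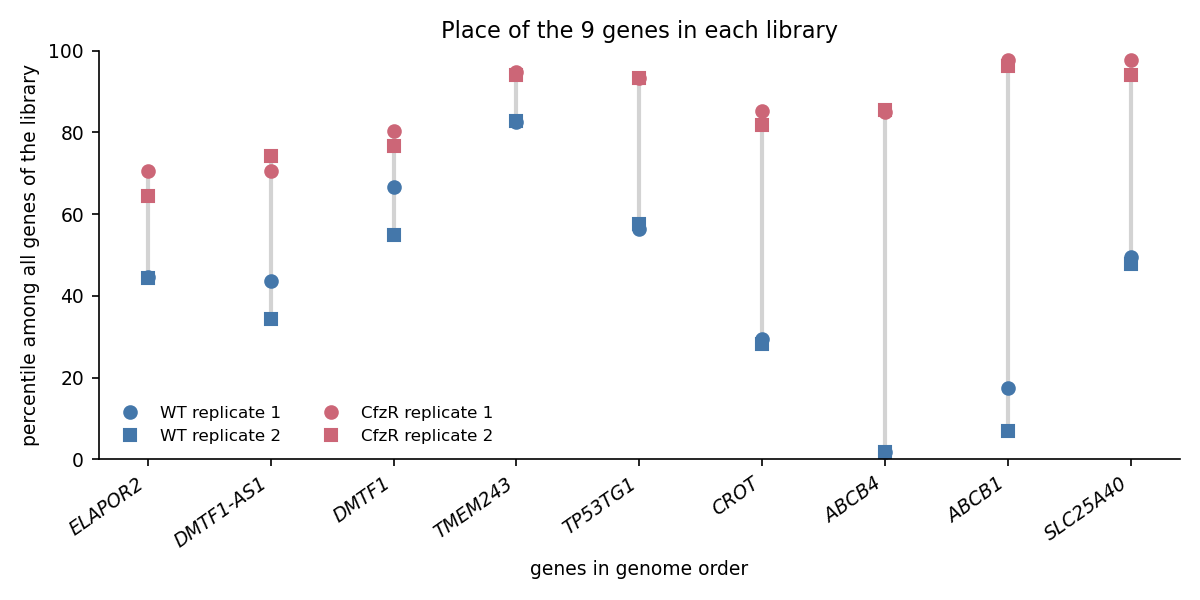
Percentile of each of the 9 genes among the 15201 genes of each library (0 is the lowest), with a grey line joining the lowest and highest library. ABCB4 and ABCB1 move from under 20 to above 80, while TMEM243 starts above 80 in WT.

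The 2 CfzR libraries did not lean one way across the block. CfzR replicate 1 was the higher for 5 genes (ELAPOR2, DMTF1, CROT, ABCB1 and SLC25A40) and replicate 2 for 4 (DMTF1-AS1, TMEM243, TP53TG1 and ABCB4). The longest annotated transcripts of the first 5 have 3175 to 6841 bases. Of the other 4, DMTF1-AS1, TP53TG1 and TMEM243 have 769, 855 and 1273 bases and ABCB4 has 4269. The part of transcript length in these library differences was not tested. Without CfzR replicate 1 the log2 differences were 1.25 for ELAPOR2, 6.90 for ABCB1 and 4.14 for SLC25A40.

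Among the 9 genes by position, the ratio of means was highest at ABCB1 and lower on both sides. Ratios of a CfzR to a WT library ran from 179 to 425 at ABCB1 and from 156 to 235 at ABCB4, so these overlapped. Both rest on low WT values, and with a pseudocount of 0.1 the log2 differences were 7.95 at ABCB1 and 7.10 at ABCB4. The block spans 999.5 kb of GRCh38, from 86876906 to 87876357. With distances between annotated gene 5′ ends, ABCB4 lies 233 kb below ABCB1 in coordinate, CROT and TP53TG1 368 kb, TMEM243 493 kb, DMTF1-AS1 and DMTF1 561 kb and ELAPOR2 654 kb. In that order the log2 difference was 5.31 at ABCB4, 3.63 and 3.25 at CROT and TP53TG1, 1.58 at TMEM243, 2.12 and 1.20 at DMTF1-AS1 and DMTF1, and 1.43 at ELAPOR2. On the other side SLC25A40, 163 kb away, had 4.56. Of the 9 genes, 7 are on the minus strand and 2, DMTF1 and CROT, on the plus strand, so higher genes lay in both orientations.

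**Figure D3:**
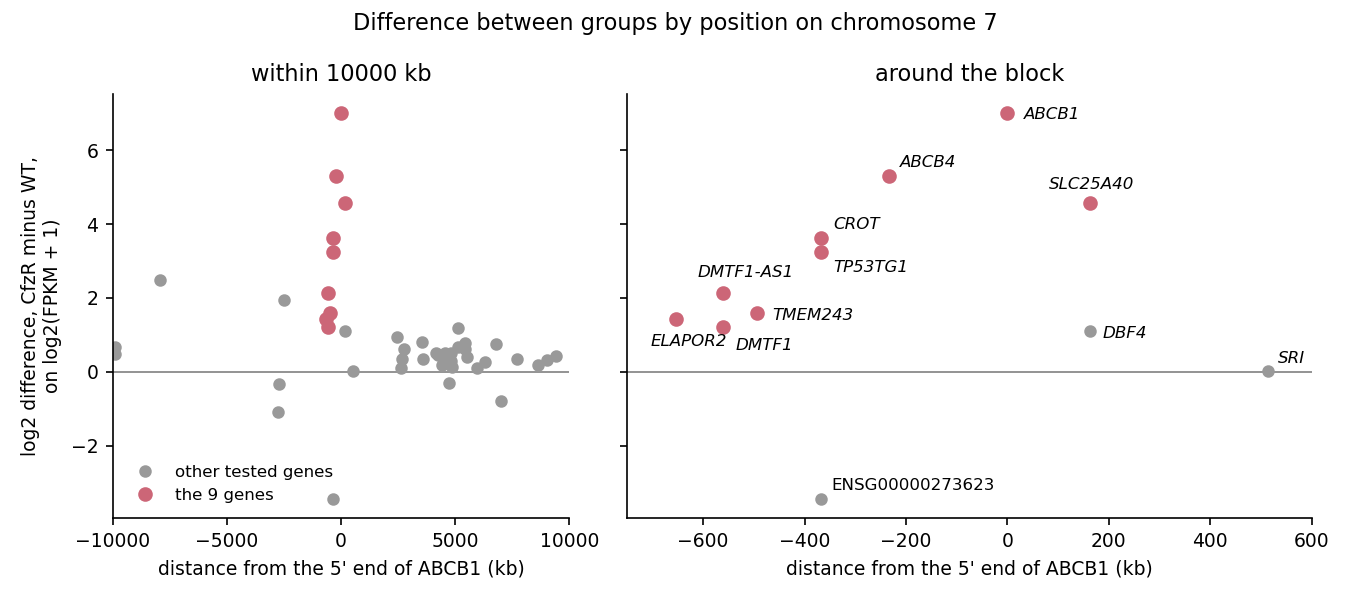
Log2 difference, CfzR minus WT, of tested genes against the distance of their 5′ end from that of ABCB1, over 10000 kb on each side (left) and around the block (right), with the 9 genes in red. The value peaks at ABCB1 (7.01) and is 1.09 at DBF4 and 0.01 at SRI. Beyond SRI it is 0.95 at STEAP1, the next tested gene, and 0.10 at GTPBP10. Outside the block on the ELAPOR2 side it is 1.95 at SEMA3D and 2.50 at GNAI1, both above ELAPOR2 (1.43). It is -0.34 at HNRNPA1P8 and -1.09 at ENSG00000280325, which lie between SEMA3D and GNAI1.

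The table has 3 other rows inside the block. RUNDC3B, which runs on the plus strand across the 5′ part of ABCB1, was listed at 0 and 0.0169 FPKM in WT and stood at 1.06 and 1.56 FPKM in CfzR. Its mean was under 1 FPKM, so it was not tested, and no exonic bases of ABCB1 are shared with it in GENCODE. The other 2 are short noncoding annotations (152 and 182 bases) that lie opposite exons of TP53TG1. ENSG00000273623 was listed at 0 in 3 libraries and at 115 FPKM in WT replicate 2, and ENSG00000276185 was listed at 0 in 3 libraries and at 3.65 FPKM in CfzR replicate 1. Neither followed TP53TG1.

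At the edges, the genes just inside were ELAPOR2 and SLC25A40 and the nearest tested genes outside were SEMA3D, 1690 kb away, and DBF4. SEMA3D, a secreted guidance factor, read 0.733 and 0.718 FPKM in the WT libraries against 7.62 and 4.17 in the CfzR libraries. DBF4, the activator of the replication kinase CDC7, read 26.4 and 26.8 FPKM in the WT libraries against 63.5 and 52.8 in the CfzR libraries. ADAM22, next to DBF4, was under the filter, with 0.496 and 0.457 FPKM for WT against 1.70 and 1.25 for CfzR. SRI, the calcium-binding protein sorcin, read 111 and 126 FPKM in the WT libraries against 114 and 125 in the CfzR libraries, with overlapping groups. STEAP1, the next tested gene, read 10.3 and 11.9 FPKM in the WT libraries against 22.8 and 22.0 in the CfzR libraries. Of the 5 nearest tested genes on each side, GNAI1 rose in the limma fit (log2 difference 2.50, SE 0.25, adjusted p = 0.0151), against 0.246% of tested genes. With 1 library left out, the log2 difference of GNAI1 ran from 2.295 (without CfzR replicate 1) to 2.698 (without CfzR replicate 2). Whether GNAI1 passed depended on the library left out: it did without either WT library and did not without either CfzR library. The remaining 9 missed the threshold (PHTF2, ENSG00000280325, HNRNPA1P8, SEMA3D, DBF4, SRI, STEAP1, GTPBP10 and CLDN12). Of the 10, 6 had an unadjusted limma p under 0.05, as had 1492 of all 13411 tested genes.

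In or at the block, 3 gene pairs start back to back. The 5′ ends of TP53TG1 and CROT are 166 bases apart in GENCODE, with the printed gap between their RefSeq starts. Their log2 differences were alike, 3.25 and 3.63. CROT was 0.253 and 0.224 times TP53TG1 in WT and 0.462 and 0.326 times in CfzR. DMTF1-AS1 and DMTF1, whose 5′ ends overlap, had 2.12 and 1.20. SLC25A40 and DBF4 have first exons that overlap by 142 bases, and their log2 differences were 4.56 and 1.09. SLC25A40 was 0.279 and 0.261 times DBF4 in WT and 4.03 and 2.71 times in CfzR. The 132 bases between their RefSeq starts hold 2 GGGCGG boxes and no CCAAT box, with 81.1% G and C. They fall in the first exon of DBF4 in GENCODE and are not printed.

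Among 1371 pairs of tested genes on opposite strands with 5′ ends within 1000 bases, the median absolute difference between partners was 0.25 on the log2 scale. Partners differed by 3.46 for SLC25A40 and DBF4, 0.92 for DMTF1-AS1 and DMTF1, and 0.38 for TP53TG1 and CROT. The block was chosen on the same differences and DBF4 lies just past its edge, so these values are a description and no place among the pairs is read from them.

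**Figure D4:**
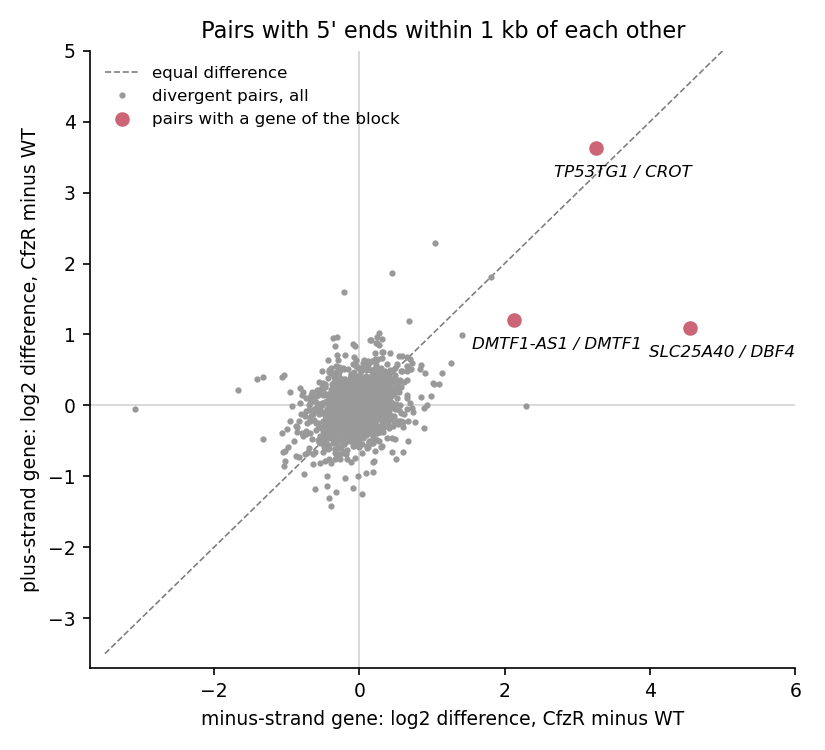
Log2 difference, CfzR minus WT, of the plus-strand gene against that of the minus-strand gene for 1371 divergent pairs (grey), with the pairs holding a gene of the block in red and a dashed line of equal difference. TP53TG1 and CROT lie near the line (3.25 and 3.63), and SLC25A40 with DBF4 lies off it (4.56 and 1.09).

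None of the tested genes related to the 9 by family or function, in 6 lists, passed the test. Listed genes without a value or under the filter were not tested, so the lists are covered in part. Each list below was fitted within all 13411 genes, of which 33 rose and 14 fell (0.246% higher, 0.35% in either direction), with a median log2 difference of -0.02. Of the 13411, 1492 had an unadjusted p under 0.05 and 6320 had a positive difference, the background for such counts in the lists. Of 12 other listed genes of multidrug resistance, 5 were tested: ABC transporters and the vault protein gene MVP. Of these 5, 0 passed in limma and 0 had an unadjusted p under 0.05, with a median of -0.10. ABCA2 had a log2 difference of -0.10 (adjusted p = 0.842) and ABCC10 one of -0.29 (adjusted p = 0.638). The other main drug pumps of the family were low throughout, with ABCC1 between 0.601 and 0.815 FPKM and ABCG2 between 0.473 and 0.673 FPKM over the 4 libraries. Of 9 other listed members of subfamily B, 5 had a value, all mitochondrial or lysosomal transporters. Of these 5, 0 passed in limma and 1 had an unadjusted p under 0.05, with a median of -0.15. ABCB10 had 0.11 (adjusted p = 0.857) and ABCB8 had -0.63 (adjusted p = 0.331).

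Transcription factors and chromatin enzymes known to act on ABCB1 were tested as 20 genes. In limma 0 passed and 1 had an unadjusted p under 0.05, with 14 positive and a median of 0.15. YBX1, which binds the inverted CCAAT box, had a log2 difference of 0.07 (adjusted p = 0.932). CEBPB had -0.09 (adjusted p = 0.904). The gene with the low p was JUN, an AP-1 subunit named after its values were seen, with 7.43 and 6.76 FPKM for WT against 23.6 and 18.0 for CfzR (log2 difference 1.42, SE 0.21, adjusted p = 0.061). Without WT replicate 1 the log2 difference of JUN was 1.48.

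Around CROT, 17 genes of carnitine acyl transfer and peroxisomal oxidation were tested, and 0 passed in limma, with 3 at an unadjusted p under 0.05, 12 positive and a median of 0.14. SLC25A20, the mitochondrial carnitine carrier, had a log2 difference of 0.06 and SCP2, a peroxisomal thiolase and sterol carrier, one of 0.14 (adjusted p = 0.915 and 0.799). EHHADH, a peroxisomal oxidation enzyme named after its values were seen, had 0.916 and 0.595 FPKM for WT against 3.19 and 2.56 for CfzR (log2 difference 1.14, SE 0.25, adjusted p = 0.167). With the replicate number as a block its limma adjusted p was 0.00254, in a fit where 1242 genes passed, against 47 without the block. The relatives of CROT had -0.22 (CRAT), 0.08 (CPT1A) and 0.13 (CPT2), with adjusted p of 0.667, 0.882 and 0.795.

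Around SLC25A40, 16 genes of mitochondrial glutathione and iron-sulfur metabolism were tested, and 0 passed in limma, with 2 at an unadjusted p under 0.05 and a median of -0.11. SLC25A39, its closest relative, read 170 and 162 FPKM in the WT libraries against 129 and 159 in the CfzR libraries (log2 difference -0.21, adjusted p = 0.726), and the lipid peroxidase GPX4 had -0.68 (adjusted p = 0.472). Around ABCB4, 10 flippases and scramblases were tested, and 0 passed in limma, with 1 at an unadjusted p under 0.05 and a median of 0.24. ATP11B and ATP8B2, both flippases, had 0.28 and 0.17 (adjusted p = 0.664 and 0.863). A p that misses the threshold with 2 libraries a group does not show that these genes did not change. ELAPOR1, ABCB5 and ABCB11 are not analysed here.

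The profile nearest to that of ABCB1 over the 4 libraries was sought among all tested genes, by Euclidean distance of log2(FPKM + 1) values centred on each gene. Of its block, ABCB4 ranked 2, SLC25A40 3, CROT 5 and TP53TG1 6, and DMTF1 was the farthest at rank 116. The 5 nearest genes outside the block were the pseudogene ATP5F1EP2 (distance 1.21), the plasma cell receptor SLAMF7 (2.92), the noncoding ENSG00000273014 (4.07), the pseudogene ZNRF2P1 (4.09) and the ion channel gene CALHM6 (4.44). ENSG00000273014 (from 32758882) and ZNRF2P1 (from 32728569) are neighbours on chromosome 7, far from the block. Such a distance over 4 libraries mostly ranks genes by the size of their difference.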

How the data were processed

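Gene expression was measured by RNA sequencing in 4 libraries of the ARP-1 line, 2 per group. The authors deposited FPKM values (fragments per kilobase of a transcript, divided by the library total) for 15201 Ensembl gene IDs. Alignment and quantification used STAR and Cufflinks, per the submitters' processing notes. For versions, genome build, annotation and use of strand, nothing is given in the sources used here. No row had a mean under 0.500 FPKM. The values hold no read counts, so depth per library is unknown and counting error cannot be stated. Columns named for a control were assigned to WT, the only group without resistance, and numbers in column names were read as replicate numbers.

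IDs were paired with symbols by ID, and 13174 had a symbol. Positions came from GENCODE release 29 (GRCh38), found for 14492 IDs, and are not the authors' coordinates. Start sites and promoter windows came from RefSeq (GRCh38.p14), with an entry for 8 of the 9 genes described. ABCB4 was the other.

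Values were compared as log2(FPKM + 1), which understates changes of low genes. The 13411 genes whose mean reached 1 FPKM were tested with limma 3.58.1 in R 4.3.3, with a mean-variance trend and two-sided Benjamini-Hochberg adjusted p under 0.05. Whether replicates were separate cultures is not in the labels, so p-values reflect the spread among the deposited libraries alone, possibly technical. The smallest exact permutation p for 2 against 2 libraries is above the threshold. The 9 genes and all lists were chosen with earlier results of these data known. The 9 genes were chosen on this contrast, so their differences are described without a test. A further list is not reported here. The text also names the other rows inside the block, the 5 nearest tested genes on each side, per list the genes past the threshold or else the 2 with the highest mean, the 5 genes nearest to ABCB1 in profile, and close relatives of the 9. Counts of genes past the threshold, over all genes and per list, were recomputed with a pseudocount of 0.1 or 5, without the filter, with one at 5 FPKM, with scaling by trimmed means (TMM), with quantile normalization, with a replicate block and without each library. The differences of the 9 genes and their median were recomputed in the same ways except for the filters, which leave them as they are. Pairs of neighbours and profile distances have no alternative.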

Additional observations from a re-analysis of the deposited data

How the results depend on the processing

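All 81 recomputed log2 differences of the 9 genes (9 alternatives each) were positive, and 70 lay within 1 SD of the replicates. Much of this was fixed in advance. Where the groups do not overlap, neither another pseudocount nor leaving out 1 library can change the sign. Leaving out 1 library cannot move a difference by more than that SD, and the replicate block returns it unchanged. These counts are therefore no measure of how firm the differences are. The median over the 9 genes, 3.25 as reported, was 2.67 with a pseudocount of 5 and 3.07 to 3.44 with 1 library left out. ABCB1 ran from 5.41 (pseudocount of 5) to 7.95 (0.1), and ABCB4 from 3.36 to 7.10. Low WT values make these 2 depend most on the pseudocount. CROT ran from 2.67 to 4.02 with the same settings. With a pseudocount of 5, ELAPOR2, DMTF1-AS1, TP53TG1 and SLC25A40 also moved by more than 1 SD of the replicates. DMTF1 and TMEM243 did not. The count of all genes past the threshold, 47, was 27 with a filter at 5 FPKM, 1242 with a replicate block (487 higher and 755 lower) and 16 to 260 with 1 library left out. Those last fits leave a lone library in a group, assumed to vary like the other group.

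With the replicate block, 1 gene each passed among other ABCB genes (ABCB8), ABCB1 regulators (JUN) and the carnitine and peroxisomal list (EHHADH), and 5 flanking genes did. The labels do not pair the libraries by number (correlation of same-numbered deviations 0.221), and the block leaves 1 residual degree of freedom. With 1 library left out, 0 to 1 regulators and 0 to 2 flanking genes passed. With the filter at 5 FPKM, which GNAI1 does not reach, 0 flanking genes passed. Depth is unknown, so how far counting error limits genes under 1 FPKM in WT, such as ABCB4, cannot be given.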

Other observations

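GNAI1 and SEMA3D, the nearest tested protein-coding genes on the ELAPOR2 side of the block, were low in WT (means of 0.372 and 0.725 FPKM) and had means of 6.81 and 5.90 FPKM in CfzR. The other 2 tested genes that lie between these, ENSG00000280325 and HNRNPA1P8, had log2 differences of -1.09 and -0.34 (limma adjusted p = 0.352 and 0.618). No tested gene lies in the 1690 kb between SEMA3D and ELAPOR2.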
